A study of Mus musculus with 8 samples.

Results

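A set of 10 genes was followed in the cingulate cortex of WT and *Mvp* KO mice: 5 that mark red blood cells and their precursors (*Hba-a1*, *Hba-a2*, *Hbb-bs*, *Hbb-bt* and *Alas2*) and 5 that mark the choroid plexus, the secretory tissue of the brain ventricles (*Ttr*, *Kl*, *Clic6*, *Folr1* and *Kcnj13*). They were chosen by symbol, as genes of blood and of ventricle tissue that a cortical dissection can carry, and all 10 were found among the 53379 genes of the count table. Both sets were detected. None of the 9 members with enough counts for a test passed it between the genotypes, and the red cell members varied more between mice of the same genotype than between the genotypes. The 5 red cell members went up and down together from mouse to mouse, whereas the 5 choroid plexus members did not move as a set.

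Bulk RNA sequencing was available for 4 WT and 4 homozygous *Mvp* KO adult male mice on a C57BL/6 background, with no treatment given. The KO mice carried a gene trap in the first intron of *Mvp*, which encodes the major vault protein, and the line came from a single embryonic stem cell clone. The gene trap was present in all cells and carried a marker cassette that the WT mice lacked. The anterior cingulate cortex was cut from the brain after CO2 euthanasia and snap-frozen, and the methods name no perfusion for these samples, so each sample is 1 dissected piece of tissue with whatever blood, membrane or ventricle wall came with it. The age of these mice was not given in the sources used here. The replicate numbers are sample labels, and nothing in the labels ties a WT mouse to a KO mouse.

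The libraries held 28456504 to 42854368 counts. *Mvp* itself, the check of the genotype, was at 5.49 to 7.89 CPM (counts scaled to an equal library size with TMM factors) in the WT samples and at 1.44 to 2.13 CPM in the KO samples (log2 fold change -2.06, SE 0.186, edgeR adjusted p = 0.0162). Cortical excitatory neuron genes were high in every sample, led by *Camk2a* with a mean of 3116 CPM. WT 4 stood apart from the other 7 libraries, with a first principal component score of 71.5 against -20.4 to -2.78, and its summed level of 10 immediate early genes was 2479 CPM against 582 to 1524 CPM elsewhere. Where the sign of a member's fold change turned without WT 4, the value without it is given. For ranges and correlations it is given in some cases only.

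Haemoglobin is a tetramer of 2 kinds of chain, alpha and beta, made in red cell precursors. In the mouse the adult alpha chain comes from *Hba-a1* and *Hba-a2* and the adult beta chain from *Hbb-bs* and *Hbb-bt*. *Alas2* encodes the erythroid form of the enzyme that starts haem synthesis. Young red cells in the circulation have lost their nucleus but still hold globin mRNA, so blood left in vessels adds globin reads to a brain library. The choroid plexus is a vascular fold covered by an epithelium that secretes cerebrospinal fluid. Its epithelium makes large amounts of transthyretin (*Ttr*), a carrier of thyroid hormone and retinol-binding protein, and also expresses klotho (*Kl*), a co-receptor for FGF23, the chloride channel protein CLIC6 (*Clic6*), the folate receptor alpha (*Folr1*) and the inward rectifier potassium channel Kir7.1 (*Kcnj13*). Some of these genes are not confined to it: klotho is also made by neurons, and *Kcnj13* and *Clic6* are also known from other epithelia.

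The 4 globin genes come in near-identical pairs, which limits how far their reads can be told apart. In GRCm38, *Hba-a1* (ENSMUSG00000069919) lies at chr11:32283511-32284465 and *Hba-a2* (ENSMUSG00000069917) at chr11:32296489-32297298, both on the plus strand, while *Hbb-bs* (ENSMUSG00000052305) lies at chr7:103826534-103828096 and *Hbb-bt* (ENSMUSG00000073940) at chr7:103812524-103813996, both on the minus strand (GENCODE vM21). The coding sequences of the alpha pair, 426 bases long in the transcripts compared, differed at 1 base, C381T, and those of the beta pair, 441 bases long, at 1 base, C417T. In both tokens the base of the first-named gene stands first, and positions are counted from 1 at the A of the start codon. The stretches of 90 coding bases around these differences are shown because they hold the only coding base that tells the genes of a pair apart, which is in capitals.
Hba-a1: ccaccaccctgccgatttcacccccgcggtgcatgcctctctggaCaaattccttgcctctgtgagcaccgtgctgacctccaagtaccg
Hba-a2: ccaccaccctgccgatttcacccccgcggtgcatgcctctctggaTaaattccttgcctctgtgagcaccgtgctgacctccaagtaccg
Hbb-bs: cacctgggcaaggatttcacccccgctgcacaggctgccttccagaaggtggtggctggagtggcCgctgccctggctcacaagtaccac
Hbb-bt: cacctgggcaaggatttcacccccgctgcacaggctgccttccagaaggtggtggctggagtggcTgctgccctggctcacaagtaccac
The differing base lies at position 32284343 of chromosome 11 in *Hba-a1* and at position 32297160 in *Hba-a2*, and at position 103826692 of chromosome 7 in *Hbb-bs* and at position 103812683 in *Hbb-bt*. All 4 positions are coding exon, and all 4 are the last base of a codon.

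Over whole transcripts, untranslated regions included, 550 stretches of 50 bases, the read length, occurred in both alpha genes. They made up 72.3% of the 761 stretches of *Hba-a1* and 89.3% of the 616 stretches of *Hba-a2*. The beta pair shared 381 stretches, 53.2% of the 716 of *Hbb-bs* and 58.3% of the 654 of *Hbb-bt*. A read from a shared stretch has 2 equal places in the genome, and how such reads were counted was not given in the sources used here. If they were left out, the counts of the single globin genes cover only their distinguishable parts, and levels of these genes are lower limits. *Alas2*, *Ttr*, *Clic6* and *Kcnj13* shared 0 such stretches with any other gene, *Kl* shared 0.573% and *Folr1* 0.398%.

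**Figure D1:**
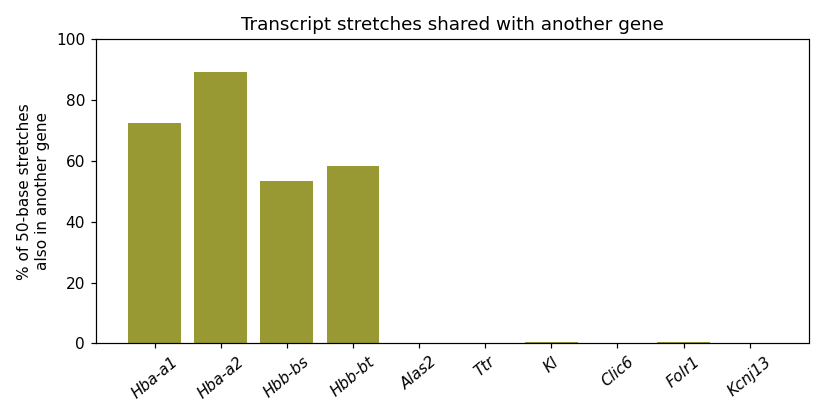
Percent of the distinct 50-base stretches of each gene's annotated transcripts that also occur in a transcript of another gene (vertical axis, 0 to 100%), for the 10 members. The 4 globin bars stand between 53.2% and 89.3%, and the other 6 are at or under 0.573%.

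The promoters of the red cell members were set side by side as a description of the genes. RefSeq promoter sequences (250 bases before and 50 after the start of transcription, GRCm38.p6) were matched for 7 of the 9 members looked up by symbol (not for *Clic6* and *Folr1*), and the 4 different ones of the red cell members are given here: *Hba-a1* at chr11:32283422-32283721 (plus strand), *Hbb-bs* at chr7:103827879-103828178 (minus strand), *Hbb-bt* at chr7:103813874-103814173 (minus strand) and *Alas2* at chrX:150547167-150547466 (plus strand). Capitals mark 4 motifs searched on both strands. The GATA motif was spelled AGATAA with the alternative spelling TGATAA, the CACC box was spelled CCACCC, the CCAAT box was searched by its own letters, and the TATA box was spelled ATATAA.
Hba-a1: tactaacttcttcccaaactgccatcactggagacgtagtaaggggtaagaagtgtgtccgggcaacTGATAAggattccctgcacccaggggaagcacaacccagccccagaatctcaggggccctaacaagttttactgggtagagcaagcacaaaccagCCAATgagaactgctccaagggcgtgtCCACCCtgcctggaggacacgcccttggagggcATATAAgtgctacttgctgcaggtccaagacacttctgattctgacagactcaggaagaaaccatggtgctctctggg
Hbb-bs: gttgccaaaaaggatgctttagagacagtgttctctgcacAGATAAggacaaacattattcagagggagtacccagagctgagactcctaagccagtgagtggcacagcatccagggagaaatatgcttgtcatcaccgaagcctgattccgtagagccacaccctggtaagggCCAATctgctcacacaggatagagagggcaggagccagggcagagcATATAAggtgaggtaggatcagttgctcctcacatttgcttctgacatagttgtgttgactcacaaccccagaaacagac
Hbb-bt: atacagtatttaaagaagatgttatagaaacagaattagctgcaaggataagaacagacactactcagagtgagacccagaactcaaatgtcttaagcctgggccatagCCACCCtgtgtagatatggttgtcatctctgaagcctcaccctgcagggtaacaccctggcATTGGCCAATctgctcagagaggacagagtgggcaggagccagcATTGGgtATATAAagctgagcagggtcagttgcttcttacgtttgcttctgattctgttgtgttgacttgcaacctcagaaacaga
Alas2: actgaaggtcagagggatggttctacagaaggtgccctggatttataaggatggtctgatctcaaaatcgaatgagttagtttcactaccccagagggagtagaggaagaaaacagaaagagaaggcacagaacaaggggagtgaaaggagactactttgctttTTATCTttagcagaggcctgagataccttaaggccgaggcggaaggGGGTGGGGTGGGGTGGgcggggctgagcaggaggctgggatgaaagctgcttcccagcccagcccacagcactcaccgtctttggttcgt
The *Hba-a2* promoter, at chr11:32296242-32296541, was the same as that of *Hba-a1* at all 297 bases that could be compared, at an offset of 3 bases. The *Hba-a1* window held all 4 motifs. That of *Hbb-bs* held the GATA motif, the CCAAT box and the TATA box, each 1 time, and that of *Hbb-bt* held 1 CACC box, 3 CCAAT boxes and 1 TATA box. Of the CCAAT boxes of *Hbb-bt*, 2 lie next to each other on opposite strands. The *Alas2* window held the GATA motif on the opposite strand and 3 overlapping CACC boxes, also on the opposite strand. Of all 32817 promoters of this length, 18.6% held the GATA motif, 31.5% the CACC box, 37.4% the CCAAT box and 9.83% the TATA box. The promoters of *Kl* and *Kcnj13* held neither the GATA motif nor the TATA box. An absence of a motif holds for the spellings searched only. The printed *Hbb-bs* sequence has the letters CCACACCC before its CCAAT box, a spelling that was not searched for the CACC box. These are matches of letters in a window and were not tied to any binding measurement.

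The red cell members were low in absolute terms. The 4 globin genes together took 0.00146% to 0.00548% of all counts. *Hbb-bs*, the highest of the 10 members also per length of exon, was at 23.8, 23.9, 31.4 and 10.2 CPM in WT 1 to WT 4 and 31.5, 26.2, 22.2 and 13.6 CPM in KO 1 to KO 4. *Hba-a1* was at 7.66, 6.90, 10.5 and 2.28 CPM in the WT samples and at 9.25, 7.10, 7.78 and 4.03 CPM in the KO samples. In both genes WT 4 was the lowest sample and KO 4 the next lowest, and the other 6 samples of the 2 genotypes overlapped.

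*Hba-a2*, the second alpha gene, was at 5.39, 3.77, 6.05 and 1.46 CPM in the WT samples and at 4.11, 4.68, 4.65 and 2.53 CPM in the KO samples. *Hbb-bt*, the second beta gene, was at 6.57, 5.55, 6.19 and 2.16 CPM in the WT samples and at 7.25, 5.54, 5.10 and 3.09 CPM in the KO samples. *Alas2* was at 2.89, 2.12, 2.94 and 0.825 CPM in the WT samples and at 2.64, 2.44, 2.10 and 1.58 CPM in the KO samples. All 5 red cell members were thus at their lowest in WT 4 and at their next lowest in KO 4. In bulk tissue, fewer cells of a type and less RNA per cell cannot be told apart.

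**Figure D2:**
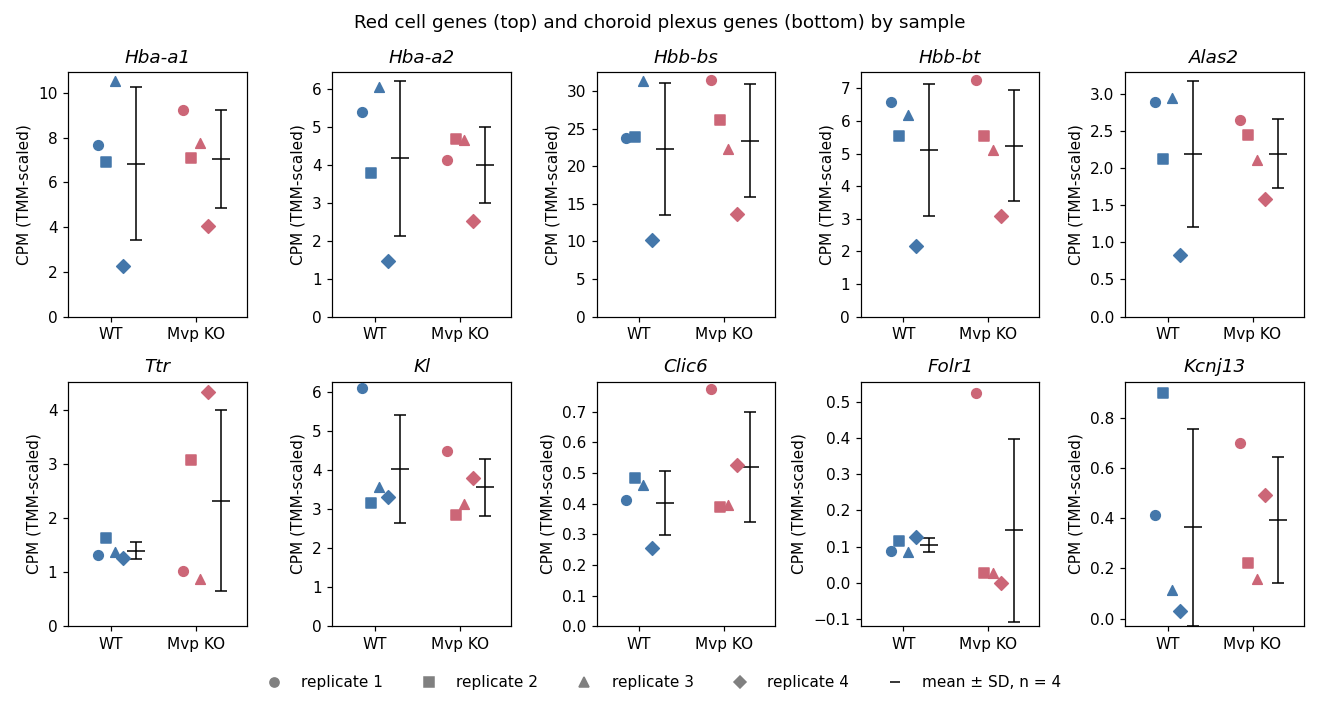
Level of each member in each sample (vertical axes, TMM-scaled CPM from 0 or below where the error bar crosses 0), WT in blue and Mvp KO in red, with the replicate number as the marker shape and the mean ± SD of 4 samples in black. In the top row the diamond of replicate 4 is the lowest point of each genotype, and *Ttr* and *Folr1* in the bottom row have 2 KO samples and 1 KO sample far above the rest.

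Their spread between samples was larger than counting error and high among all genes tested, whatever their level. The coefficient of variation over the 8 samples lay between 32.6% (*Alas2*) and 38.4% (*Hba-a1*), against a counting error of 3.46% to 11.2%. Ranked by the SD of log2 CPM, *Hba-a1* stood at the 96.1 percentile of all 16914 genes tested, *Hba-a2* at 94.9, *Hbb-bt* at 92.8, *Alas2* at 92.6 and *Hbb-bs* at 92.0. The summed level of the 5 genes was 46.3, 42.2, 57.1 and 17.0 CPM in the WT samples and 54.7, 45.9, 41.9 and 24.9 CPM in the KO samples. The highest sample thus held 3.36 times the level of the lowest, and both extremes, WT 3 and WT 4, were WT mice. Without WT 4 the ratio was 2.29.

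Between the genotypes the red cell members were close. The mean of *Hbb-bs* was 22.3 ± 8.79 CPM in WT and 23.4 ± 7.52 CPM in KO (SD, n = 4 per genotype), a log2 fold change of 0.069 with SE 0.333 and a 95% interval from -0.68 to 0.82. *Hba-a1* had 6.85 ± 3.42 and 7.04 ± 2.20 CPM, a log2 fold change of 0.042 with an interval from -0.87 to 0.96. *Hba-a2* had 4.17 ± 2.04 and 3.99 ± 1.01 CPM, a log2 fold change of -0.059 with an interval from -0.93 to 0.81. *Hbb-bt* and *Alas2* had log2 fold changes of 0.038 and 0.0014, with intervals from -0.75 to 0.83 and from -0.79 to 0.79. The intervals of these 5 genes reach from 0.526-fold to 1.94-fold, so a difference inside that range in a single gene could not be told from none.

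Of the 9 members tested, 0 were called at an adjusted p under 0.05 (edgeR's quasi-likelihood test, Benjamini-Hochberg over 16914 genes), where 0.00591% of all genes tested were called, which is 1 gene, *Mvp*. At an unadjusted p under 0.05 the count was 0 of 9, against 1.56% of all genes. Groups that did not overlap in CPM were found for 0 of 9 members and for 1.52% of all genes. DESeq2's Wald test also called 0 members, of 10 that it could test, with 0.00651% of its genes called. With shares this low, a count of 0 among 9 is what the background gives and says nothing particular about these genes. The median log2 fold change was 0.038 for the 5 red cell members and 0.20 for the 4 choroid plexus members tested, against -5.1e-06 over all genes. Without WT 4, the red cell median was -0.24 and the choroid plexus median -0.024, so the sign of both depended on that sample, while the number of members called stayed at 0. Single genes turned as well without WT 4: *Hba-a1* had a log2 fold change of -0.24, *Hbb-bs* of -0.16, *Hbb-bt* of -0.21 and *Alas2* of -0.26.

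**Figure D3:**
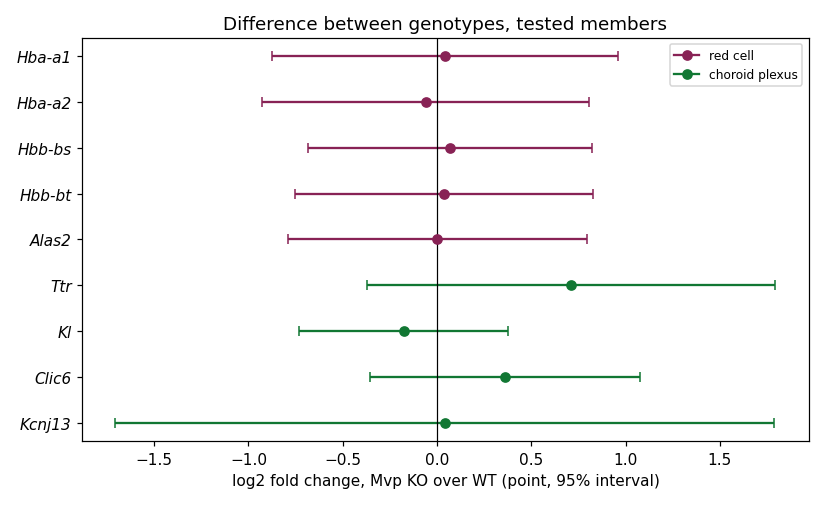
Log2 fold change of Mvp KO over WT (horizontal axis) for the 9 members tested, with the 95% interval of the edgeR fit, n = 4 per genotype, red cell members in purple and choroid plexus members in green. All 9 intervals cross 0, from the narrowest, *Kl* (-0.73 to 0.38), to the widest, *Kcnj13* (-1.71 to 1.79).

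The proportions among the red cell members were steadier than their levels. The alpha genes gave 23.2% (WT 4) to 31.3% (KO 3) of all globin reads, with a mean of 27.6% ± 3.46 in WT and 28.0% ± 2.38 in KO (SD, n = 4). *Hbb-bt* gave 16.5% to 21.7% of the beta reads. *Hba-a2* gave 36.6% ± 4.01 of the alpha reads in KO and 38.0% ± 2.67 in WT. The lowest *Hba-a2* share was 30.8% in KO 1 (exact binomial 95% interval 26.9% to 34.9%) and the highest 41.3% in WT 1 (36.7% to 46.1%), so these 2 samples differed by more than counting error. The intervals cover counting error only, and the shares inherit the loss of reads that both genes of a pair share.

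*Alas2* kept step with the globins. It gave 4.83% (KO 1) to 6.35% (KO 4) of the reads of the 5 red cell members, and there were 5.07 to 6.78 *Alas2* reads per 100 globin reads, a range of 1.34-fold beside the 3.35-fold range of the summed globin level. On a scale per length, the order was *Hbb-bs* (29.1 ± 11.4 CPM per kb of exon in WT and 30.4 ± 9.79 in KO), *Hba-a1* (8.43 ± 4.21 and 8.67 ± 2.70), *Hbb-bt* (7.28 ± 2.87 and 7.46 ± 2.44), *Hba-a2* (6.25 ± 3.06 and 5.99 ± 1.52) and *Alas2* (0.912 ± 0.410 and 0.912 ± 0.194; SD, n = 4). The means of *Hba-a1*, *Hbb-bt* and *Hba-a2* were nearer to each other than to those of *Hbb-bs*, above them, and *Alas2*, below them. These SDs are between mice in which the genes rose and fell together, so they do not measure the difference between 2 genes. The lengths include the shared stretches, from 53.2% of the stretches of *Hbb-bs* to 89.3% of those of *Hba-a2*. If reads from them were left out, the order of the globins per length may not be that of their mRNA. Of the exonic bases of *Alas2*, 15.5% lie opposite *Apex2* (155 to 233 counts per sample) and a microRNA gene, and reads of the 2 strands can be told apart only if strand was used in counting.

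Across the 8 samples, the 10 pairs of red cell members had Pearson correlations of log2 CPM between 0.915 and 0.976, with a median of 0.962, and Spearman correlations between 0.595 and 0.881. Without the 2 samples farthest from the median of the second gene of a pair, r fell to between 0.127 and 0.807, with a median of 0.640. The height of these correlations thus rests on the extreme samples. Without WT 4 alone, r was 0.782 to 0.954, with a median of 0.892. The points share libraries and depth, and the genes of a globin pair may share reads. *Alas2*, which shares no 50-base stretch with another gene, had r between 0.939 and 0.969 with the 4 globins, and between 0.630 and 0.753 without the 2 samples. Between a red cell member and a choroid plexus member r was -0.301 to 0.615 over 25 pairs, with a median of 0.334. Without the 2 farthest samples it was -0.667 to -0.0115, with a median of -0.353, so the positive values rest on the extreme samples.

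**Figure D4:**
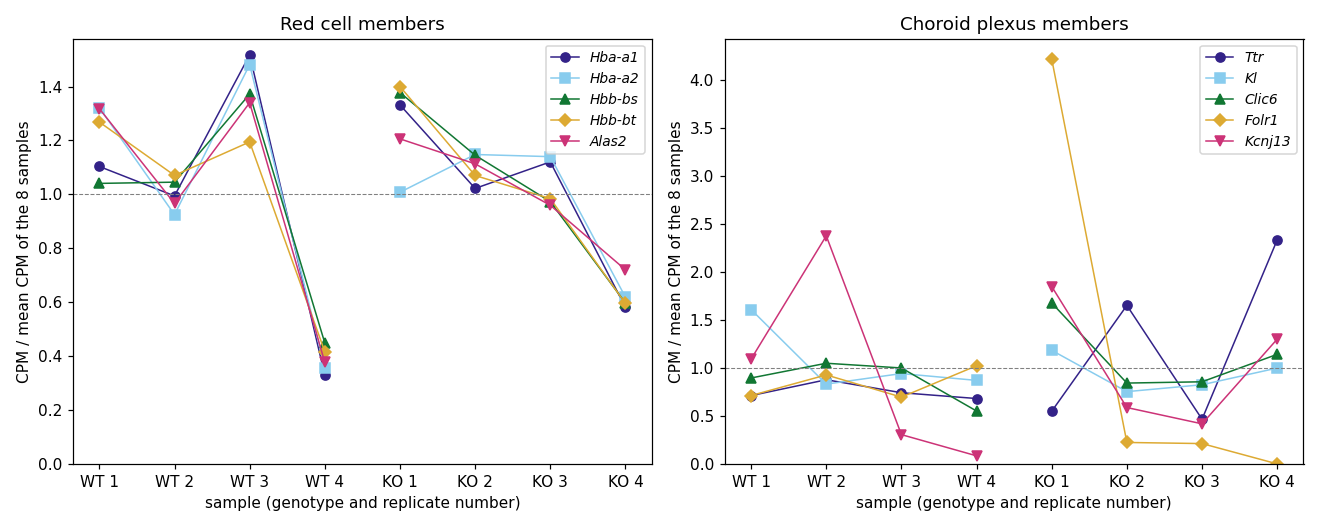
Level of each member in each sample divided by its own mean over the 8 samples (vertical axis, linear, 1 is the mean), red cell members on the left and choroid plexus members on the right, with lines joining the samples of a genotype only to guide the eye. The 5 red cell lines run close together with their lowest points in WT 4 and KO 4, while in the right panel the highest points fall in WT 1 (*Kl*), WT 2 (*Kcnj13*), KO 1 (*Clic6* and *Folr1*) and KO 4 (*Ttr*).

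Other genes of red cells and haem were counted beside the members. Of 20 listed genes of red cell precursors and the red cell membrane, 18 were matched by symbol, 7 were tested and 0 were called (4 higher and 3 lower in KO, median log2 fold change 0.057). The tested genes are ones that brain cells also express. The genes that define precursors were at or near 0: *Gata1*, the master regulator of the lineage, had 0 counts in all 8 samples, and *Klf1*, a transcription factor gene of the same lineage, was at 0.046 to 0.173 CPM. A count of 0 allows up to 3 counts in a library, which is 0.069 to 0.105 CPM here. Globin mRNA was therefore measured in tissue with almost no reads of nucleated precursors.

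The embryonic globin genes *Hba-x*, *Hbb-bh1*, *Hbb-bh2* and *Hbb-bh0* had 0 counts in all 8 samples. *Hbb-y*, another embryonic globin gene, had 5 counts in all, 0 to 2 in each sample. Of the 10 embryonic and minor globins 2 were tested and 0 called (2 higher, median 0.060), led by cytoglobin (*Cygb*), a globin of fibroblast-like cells, at a mean of 44.9 CPM. All 12 other genes of haem synthesis and breakdown were tested, 0 were called, 6 were higher and 6 lower in KO, and their median log2 fold change was 0.0078. Ferrochelatase (*Fech*), which completes haem by inserting iron, was the highest of them at a mean of 66.1 CPM, between 60.3 and 74.0 CPM over the samples. The summed haem genes thus did not share the dip of *Alas2* in WT 4, where they were at 406 CPM, the highest of the 8 sums, against 364 to 403 CPM elsewhere.

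Lists for other content of the blood vessels gave no calls either. Of 10 blood leukocyte genes 2 were tested (1 higher, 1 lower, median -0.020), led by *Ighm*, the immunoglobulin mu chain gene, at a mean of 24.9 CPM. Of 6 platelet genes 3 were tested (0 higher, 3 lower, median -0.18), led by *Gp1bb* at a mean of 4.91 CPM. All 10 endothelial genes were tested (2 higher, 8 lower, median -0.075), led by the glucose transporter gene *Slc2a1*, which was at 144 ± 32.4 CPM in WT and 109 ± 26.9 CPM in KO. The summed endothelial level was 396 to 442 CPM in WT and 357 to 381 CPM in KO, without overlap, while each of the 10 genes overlapped between the genotypes. Without *Slc2a1* the sums overlapped, at 226 to 325 CPM in WT and 234 to 303 CPM in KO, so this 1 gene carried the separation. In WT 4, where the red cell members were lowest, the full endothelial sum was 417 CPM, inside the range of the other samples. Of its 10 genes, 3 were at their lowest in WT 4. Only the sum without *Slc2a1* was the lowest of the 8 there, at 226 CPM against 234 to 325 CPM. The part of vessel content in the red cell levels was not tested.

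*Ttr* had the largest fitted difference of the 9 members tested. It was at 1.33, 1.63, 1.38 and 1.27 CPM in WT 1 to WT 4 and at 1.02, 3.08, 0.867 and 4.35 CPM in KO 1 to KO 4. KO 2 and KO 4 lay above all WT samples and KO 1 and KO 3 below all of them, so the groups overlapped although the KO mean was higher. The counts behind these values were 45, 71, 48 and 40 in WT and 41, 111, 33 and 124 in KO, and the exact Poisson 95% intervals of KO 2 (91.3 to 134) and KO 4 (103 to 148) stayed apart from those of KO 1 (29.4 to 55.6) and KO 3 (22.7 to 46.3). The log2 fold change was 0.71 with SE 0.481 and a 95% interval from -0.37 to 1.80 (edgeR adjusted p = 0.969). Without KO 4 it was 0.23, and with limma voom and sample weights 0.10, where *Ttr* no longer had the largest difference of the members. *Ttr* was at the 97.0 percentile of spread among all genes tested.

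In *Kl* 1 sample stood apart. The gene was at 6.10, 3.15, 3.57 and 3.30 CPM in the WT samples and at 4.49, 2.86, 3.13 and 3.79 CPM in the KO samples. WT 1 stood above the other 7 samples, which lay between 2.86 and 4.49 CPM. Its log2 fold change was -0.18 with SE 0.247 and an interval from -0.73 to 0.38, and without WT 1 it was 0.091. With a spread at the 75.9 percentile it was the steadiest of the 9 members tested.

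*Clic6* was under 1 CPM in every sample, at 0.413, 0.483, 0.461 and 0.254 CPM in the WT samples and at 0.773, 0.388, 0.394 and 0.526 CPM in the KO samples. KO 1 was the highest and WT 4 the lowest, from 31 and 8 counts, and the genotypes overlapped. Its log2 fold change was 0.36 with SE 0.319 and an interval from -0.36 to 1.08.

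*Kcnj13* ranged most of the tested members. It was at 0.413, 0.897, 0.115 and 0.0317 CPM in the WT samples, from 14, 39, 4 and 1 counts, and at 0.698, 0.222, 0.158 and 0.491 CPM in the KO samples, from 28, 8, 6 and 14 counts. The highest and the lowest sample, WT 2 and WT 4, were both WT mice, 28.3-fold apart. Without WT 4 the range was 7.79-fold. Its spread was at the 99.5 percentile and its log2 fold change was 0.041 with SE 0.776 and an interval from -1.71 to 1.79, and without WT 4 it was -0.32. *Kcnj13* lies within *Gigyf2* on the opposite strand, and 49.1% of its exonic bases overlap exons of that gene. *Gigyf2* had 2749 to 3740 counts in every sample, including WT 4 with its 1 count of *Kcnj13*, so in that sample at most 1 read of *Gigyf2* was counted for *Kcnj13*.

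*Folr1* was too low for a test. It had 3, 5, 3 and 4 counts in the WT samples and 21, 1, 1 and 0 counts in the KO samples. These are 0.0864 to 0.127 CPM in WT and 0.524, 0.0277, 0.0263 and 0 CPM in KO, so that KO 1 was above every other sample and the other 3 KO samples were below every WT sample. The exact Poisson interval of KO 1 (13.0 to 32.1 counts) lay above those of the other samples, the highest of which ended at 11.7 counts. The 0 of KO 4 allows up to 3 counts, or 0.105 CPM. Without a filter on low counts, edgeR gave a log2 fold change of 0.54 with SE 0.979.

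Per length, the choroid plexus members were in the order *Ttr* (1.18 ± 0.136 CPM per kb of exon in WT and 1.96 ± 1.42 in KO), *Kl* (0.432 ± 0.149 and 0.382 ± 0.0782), *Kcnj13* (0.287 ± 0.308 and 0.309 ± 0.197), *Clic6* (0.103 ± 0.0264 and 0.133 ± 0.0460) and *Folr1* (0.0454 ± 0.00871 and 0.0629 ± 0.110; SD, n = 4). The ranges of mean ± SD overlapped for *Kl* and *Kcnj13*, for *Kcnj13* and *Clic6*, and, in KO, for *Clic6* and *Folr1*. Both genes of a pair were measured in the same mice, so these SDs do not measure the difference between 2 genes, which was not tested. The balance within the set was not steady: there were 21.7 *Ttr* reads per 100 *Kl* reads in WT 1 and 115 in KO 4.

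The label choroid plexus was checked against other genes known for this tissue. Of 25 listed genes 17 were tested and 0 were called (8 higher and 9 lower in KO, median log2 fold change -0.0020). *Aqp1*, the water channel of the epithelium, was at 0.333 to 0.825 CPM, the transcription factor gene *Otx2* at 0.0230 to 0.474 CPM, *Kcne2* at 0.0832 to 0.210 CPM and *Slc4a5* at 0 to 0.730 CPM. Of the other markers, *Prlr* was at 0.437 to 0.842 CPM and *Sostdc1* at 0.0635 to 1.28 CPM, and only *Enpp2* was high, with a mean of 213 CPM, a gene that oligodendrocytes also express strongly. The defining epithelial markers were thus close to the lower end of detection, and the 10 pairs of choroid plexus members had r between -0.600 and 0.779 with a median of 0.275. The data therefore do not show these 5 genes as the readout of 1 tissue, and they are described here by name.

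The members differed in the lists they were alike with, as a description over 8 samples that share libraries and depth. *Clic6* and the summed level of 10 leptomeningeal genes had r = 0.919 and rho = 0.810, and r = 0.602 without the 2 samples farthest from the median. *Kcnj13* and the same sum had r = 0.848 and rho = 0.786, and r = 0.651 without the 2 samples. Without WT 4 alone, r was 0.839 for *Clic6* and 0.709 for *Kcnj13*. The likeness was not to this list only. With the summed folate carriage genes, *Kcnj13* had r = 0.864 and rho = 0.857, and r = 0.847 without the 2 samples. *Clic6* had r = 0.833 and rho = 0.881 with them, and r = 0.585 without the 2 samples. The leptomeninges are the inner membranes that cover the brain. Their summed genes were at 76.8, 102, 75.6 and 22.1 CPM in the WT samples and at 158, 54.9, 38.3 and 67.4 CPM in the KO samples, with KO 1 highest and WT 4 lowest. *Clic6* had its highest and its lowest value in the same 2 samples, and *Kcnj13* was lowest in WT 4, with KO 1 the second highest. The role of the membranes in these levels was not tested.

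Of the 10 leptomeningeal genes 9 were tested, 0 were called, and all 9 had a positive log2 fold change with a median of 0.12. *Col1a2*, a collagen gene, was the highest at 17.7 ± 4.90 CPM in WT and 18.4 ± 6.05 CPM in KO. In KO 1, 9 of the 10 genes were at their highest, and in WT 4, 9 of the 10 were at their lowest. The red cell members were also lowest in WT 4, and *Hbb-bs* and *Hbb-bt* highest in KO 1, and *Hbb-bs* had r = 0.715 with the leptomeningeal sum, which came to 0.101 without the 2 farthest samples.

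*Folr1* went with ependymal genes in 1 sample. The ependyma is the ciliated cell layer that lines the ventricles. Its 10 listed genes summed to 5.56 to 7.04 CPM in WT, to 18.1 CPM in KO 1 and to 4.05 to 6.07 CPM in the other KO samples, and 9 of the 10 genes were at their highest in KO 1. *Ccdc153* had 114 counts in KO 1 and 0 to 7 in the other samples, and *Tmem212* had 43 counts in KO 1 and 0 to 2 in the others. Of the 25 other choroid plexus genes, 9 were also at their highest in KO 1. Among these, *Otx2* had 19 counts in KO 1 and 1 to 3 elsewhere, and *Calml4* had 22 and 0 to 4. *Folr1* and the ependymal sum had r = 0.847 and rho = 0.667, and r = 0.309 without the 2 farthest samples, so that the relation rests on KO 1. With the other choroid plexus genes without *Enpp2*, *Folr1* had r = 0.769 and rho = 0.786, and r = 0.614 without the 2 farthest samples. With the sum of the 6 choroid plexus markers named below, r was 0.268 and rho 0.190. *Kl* and the ependymal sum had r = 0.553 and rho = 0.833, and r = 0.823 without the 2 farthest samples. This likeness was not to the ependymal list only. With the thyroid hormone and retinol carriage genes, *Kl* had r = 0.646, and 0.767 without the 2 samples. With the leptomeningeal sum it had r = 0.420, and 0.308 without them. Of the ependymal genes 5 were tested, 0 were called, 4 were higher and 1 lower in KO, with a median of 0.24, and *Rarres2* was the highest at a mean of 2.61 CPM. Whether ventricle wall in KO 1 accounts for its *Folr1* reads was not tested.

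*Ttr* had low correlations with these sums. Its r was 0.024 with the leptomeningeal genes and -0.25 with the ependymal genes. With the summed level of 6 choroid plexus markers (*Aqp1*, *Otx2*, *Slc4a5*, *Sostdc1*, *Kcne2* and *Prlr*), which was only 1.52 to 2.69 CPM, it had r = 0.097 and rho = -0.071, and r = 0.55 without the 2 farthest samples. KO 1, the sample richest in ependymal and leptomeningeal genes, had the second lowest *Ttr* value. In KO 4 and KO 2, where *Ttr* was highest, the ependymal sums were 6.07 and 4.68 CPM, inside or below the range of the WT samples.

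**Figure D5:**
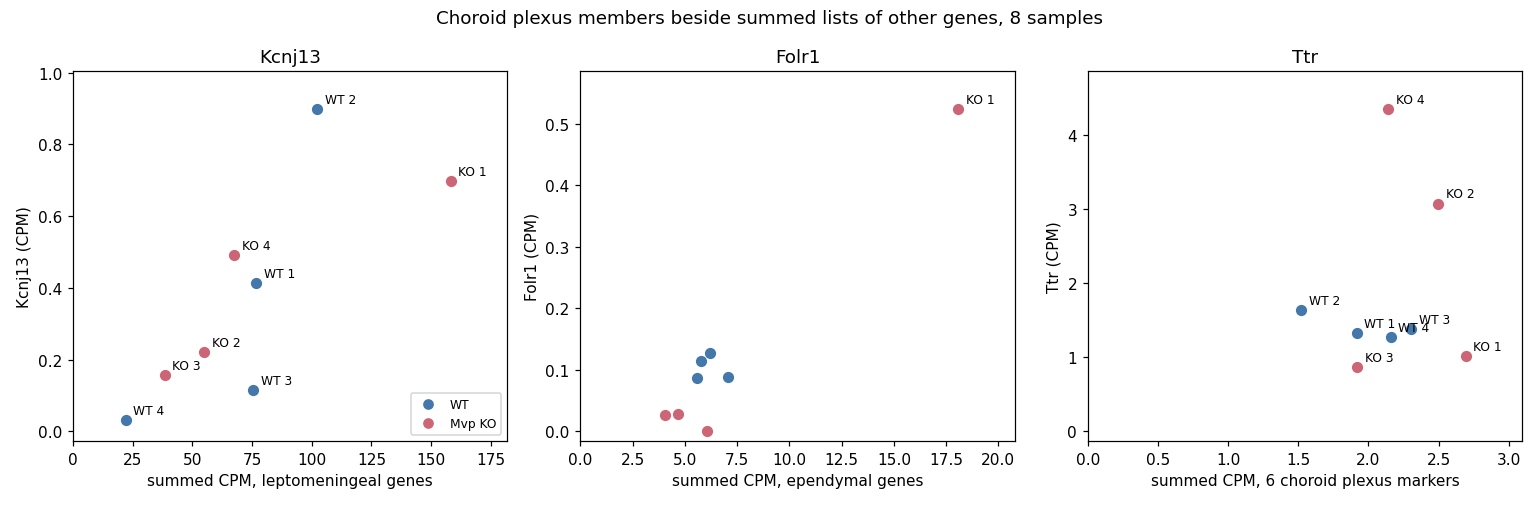
Level of *Kcnj13*, *Folr1* and *Ttr* (vertical axes, CPM) against the summed CPM of leptomeningeal genes, ependymal genes and 6 choroid plexus markers (horizontal axes) in the 8 samples, WT in blue and Mvp KO in red, with only KO 1 named in the middle panel. *Kcnj13* runs from WT 4 at the lower left to WT 2 and KO 1, *Folr1* has 1 sample, KO 1, apart from 7 close to each other, and the 2 samples with high *Ttr*, KO 2 and KO 4, have neither the highest nor the lowest marker sum.

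The partners of these genes in their pathways were also counted. Of 9 genes of thyroid hormone and retinol carriage, the cargo of transthyretin, 8 were tested and 0 called (4 higher, 4 lower, median -0.013), led by the deiodinase gene *Dio2* at 155 ± 47.5 CPM in WT and 156 ± 34.7 CPM in KO. Of 6 genes of folate carriage and use, 5 were tested and 0 called (4 higher, 1 lower, median 0.080). Of 9 genes of the klotho pathway, 7 were tested and 0 called (4 higher, 3 lower, median 0.11), led by *Adam10*, a protease that sheds klotho from the membrane, at a mean of 132 CPM. One of these 7, *Klb*, which encodes beta-klotho, did not overlap between the genotypes, at 0.383 to 0.539 CPM in WT and 0.561 to 0.648 CPM in KO (log2 fold change 0.31, SE 0.215, edgeR unadjusted p = 0.185), and was named after its values were seen. The 10 cortical excitatory neuron genes (3 higher, 7 lower, median -0.091) and the 10 immediate early genes (6 higher, 4 lower, median 0.063, led by *Egr1* at a mean of 360 CPM) also had 0 calls.

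Among 14406 genes with a mean of at least 1 CPM, those most like the summed globins in log2 CPM over the 8 samples were *Tmem150a* (r = 0.984, rho = 0.929, and r = 0.825 without the 2 farthest samples), *Mecr* (r = 0.970), *Hypk* (r = 0.969), *Gm38394* (r = 0.967) and *Map2k7* (r = 0.967). These genes moved far less than the globins: *Tmem150a* lay between 5.68 and 7.80 CPM, and *Map2k7* between 50.5 and 58.1 CPM. Those most like the summed choroid plexus members were *Snrpf* (r = 0.924), *Gm43681* (r = 0.912), *Col6a4* (r = 0.906), *Hpgd* (r = 0.898) and *Fmo1* (r = 0.898). *Col6a4*, a collagen gene, lay between 1.13 CPM in KO 3 and 4.86 CPM in WT 1. These genes were picked as the highest of many correlations over only 8 samples.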

How the data were processed

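Members and gene lists were chosen with earlier results of these data known. The authors trimmed reads with cutadapt 1.10, mapped them with STAR 2.5.3a to mm10 and counted them per gene with htseq-count (HTSeq 0.6.1p1, Ensembl release 91). They deposited raw counts, having set an RNA integrity number of 8 as the minimum. Counting mode, strand setting and the handling of multi-mapped reads were not given in the sources used here. Libraries were stranded, from polyadenylated RNA, with single-end reads of 50 bases.

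Counts were fitted with edgeR 4.0.16 in R 4.3.3 (filterByExpr with a minimum count of 10, TMM, robust quasi-likelihood test, genotype as single term, Benjamini-Hochberg over 16914 genes). The code was tested on simulated data. Alternatives were DESeq2 1.42.0, its size factors, 2 filters, limma 3.58.1 voom with sample weights, a replicate block and leaving out each sample. No pair of libraries looked like duplicates, with a chi-square per gene of at least 6.94. p-values weigh the genotype difference against the spread between these samples, which the fit moderates across genes. Symbols came from GENCODE vM21, which holds 53274 of 53379 identifiers. *Ahsp* and *Fam46c* were not matched. Levels are TMM-scaled CPM, and log2 CPM used a prior count of 2.

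Named were the members, *Mvp*, the gene with the highest mean of each list, any list gene with an unadjusted p under 0.05 (0 genes), the markers of each cell type, and the 5 genes most like each summed set. *Klb*, *Gigyf2* and the marker genes singled out by sample were named after their values were seen. Sums without *Slc2a1* or *Enpp2* and of the 6 markers, and the values without WT 4 for correlations and ranges, were added after seeing the data. A few items under this rule are not reported.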

Additional observations from a re-analysis of the deposited data

Results flagged for a closer look

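Of 52 groups of 4 samples examined, 4 had a sample far from the other 3 by Dixon's ratio at its 95% critical value, where chance alone gives about 2.6. *Kl* in WT 1 had 6.10 CPM, and the rest of its genotype 3.15 to 3.57 CPM. *Folr1* in KO 1 had 0.524 CPM, and the rest of its genotype 0 to 0.0277 CPM. The summed ependymal genes in KO 1 came to 18.1 CPM and those of the remaining KO samples to between 4.05 and 6.07 CPM, so that 2 of the 4 values come from the same library. The summed genes of haem synthesis and breakdown in KO 4 came to 364 CPM and in the remaining KO samples to between 398 and 403 CPM. No globin gene, and neither *Alas2* nor *Ttr*, had a sample that far from the others of its genotype.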

How the results depend on the processing

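No member was called in any of the 14 alternatives, which tested 7 to 10 of them. The number of genes called was 2 with DESeq2's Wald test, 2 with limma voom and sample weights, 0 with the replicate block and 0 to 1 without single samples (1 without WT 4 and 1 without KO 3), against 1 with all samples in edgeR. Same-numbered samples of the 2 genotypes deviated together with r of -0.0067 to 0.29. Such correlations cannot tell whether same-numbered samples were handled together, and the labels name no pairing. With the block, the SE of *Hba-a1* went from 0.406 to 0.207, of *Hbb-bs* from 0.333 to 0.162 and of *Kcnj13* from 0.776 to 0.746. The block gave a log2 fold change of 0.051 for *Hba-a2*, which changed sign. Voom turned *Hba-a1* to -0.33, *Hbb-bs* to -0.34, *Hbb-bt* to -0.29 and *Alas2* to -0.33, and the red cell median to -0.33, and it lowered *Ttr* to 0.10 and *Clic6* to 0.035. The cause was not tested. Leaving out single samples gave -0.24 to 0.32 for *Hba-a1*, -0.33 to 0.17 for *Hba-a2*, -0.16 to 0.27 for *Hbb-bs*, -0.21 to 0.22 for *Hbb-bt*, -0.26 to 0.17 for *Alas2*, -0.31 to 0.091 for *Kl*, -0.43 to 1.04 for *Kcnj13*, 0.23 to 0.99 for *Ttr* and 0.095 to 0.48 for *Clic6*. The red cell median lay between -0.24 and 0.22 and the choroid plexus median between -0.11 and 0.63 without single samples, so both changed sign. Of the members, only *Ttr* without KO 3 reached an unadjusted p under 0.05. *Folr1*, *Kcnj13* and *Clic6* rest on few counts, so counting error adds to their spread.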
